A study of Mus musculus with 6 samples.

Results

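The integrated stress response genes driven by the transcription factors ATF4 and CHOP were followed in neuro2a (N2a) cells, a mouse neuroblastoma line, after knockdown of NF-Y. They were 10 genes, Atf4, Ddit3, Chac1, Trib3, Asns, Sesn2, Atf3, Ppp1r15a, Psat1 and Phgdh, taken as the array probes whose transcript accession maps to one of these symbols. All 10 were measured, by 13 probes, among 16490 genes tested. The RNA came from 3 samples of cells transfected with an empty vector (labelled Vector, here control) and 3 of cells that received miR RNAi vectors that target both NF-YA and NF-YC (labelled YAYC, here knockdown). Both groups shared the same line, the same vector backbone with its EmGFP reporter, and lipid transfection, so that every array holds RNA of a transfected population and not of selected cells. The paper also names a vector with a non-targeting miR RNAi as a control, but these control arrays are labelled Vector. Effects of losing NF-Y and of expressing a miR RNAi therefore cannot be told apart here. Whether the samples of a group were separate cultures is not stated in the labels, and p-values therefore measure only the spread between these samples, which may be technical.

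When cells lack amino acids or carry unfolded proteins in the endoplasmic reticulum (ER), kinases such as GCN2 and PERK phosphorylate the translation factor eIF2. General translation then slows while the mRNA of ATF4 is translated better, and ATF4 switches on genes for amino acid supply, for CHOP (the product of Ddit3) and for feedback on the response itself. ATF4 is thus controlled largely at translation, which an array of mRNA does not measure. NF-Y is a trimer of NF-YA, NF-YB and NF-YC that binds CCAAT boxes near transcription start sites. CCAAT boxes are also one end of the ER stress response element (ERSE), through which ATF6 and XBP1, the other arms of the unfolded protein response, act.

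Sequence of the 250 bases upstream of the transcription start was available for all 10 members in the RefSeq promoter table of build GRCm38.p6, with 11 windows since Psat1 has a pair of starts. The windows were searched on both strands for the CCAAT box, the C/EBP-ATF composite element TGATGNAA bound by ATF4 with a C/EBP partner, the cyclic AMP response element (CRE) TGACGTCA, the unfolded protein response element (UPRE) core TGACGTGG, and the ERSE, which has a CCAAT box and CCACG spaced 9 bases apart, with its variant ERSE-II. Windows of 6 members are shown, those of the genes whose signal moved most, of ATF4 and CHOP themselves, and of Asns as the example of a composite element close to the start. Capitals mark the elements found, and ATTGG and TTGCATCA are a CCAAT box and a composite element read on the other strand.

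Chac1, chr2:119350992-119351241, plus strand: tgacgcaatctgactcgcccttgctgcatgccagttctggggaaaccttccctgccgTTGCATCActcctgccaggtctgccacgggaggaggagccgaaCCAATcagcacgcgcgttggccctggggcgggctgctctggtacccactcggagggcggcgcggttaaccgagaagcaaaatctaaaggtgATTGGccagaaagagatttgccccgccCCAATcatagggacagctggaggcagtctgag
Sesn2, chr4:132510457-132510706, minus strand: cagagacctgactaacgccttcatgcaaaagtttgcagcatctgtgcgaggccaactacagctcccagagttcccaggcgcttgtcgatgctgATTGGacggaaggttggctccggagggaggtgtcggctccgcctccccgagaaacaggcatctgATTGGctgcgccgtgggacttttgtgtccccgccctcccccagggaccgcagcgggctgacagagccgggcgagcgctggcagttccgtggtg
Ppp1r15a, chr7:45526269-45526518, minus strand: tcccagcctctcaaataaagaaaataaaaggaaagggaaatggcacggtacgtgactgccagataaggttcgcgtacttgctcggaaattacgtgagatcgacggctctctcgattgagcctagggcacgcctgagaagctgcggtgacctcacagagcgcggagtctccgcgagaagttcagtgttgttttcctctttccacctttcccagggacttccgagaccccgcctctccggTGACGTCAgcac
Atf4, chr15:80254934-80255183, plus strand: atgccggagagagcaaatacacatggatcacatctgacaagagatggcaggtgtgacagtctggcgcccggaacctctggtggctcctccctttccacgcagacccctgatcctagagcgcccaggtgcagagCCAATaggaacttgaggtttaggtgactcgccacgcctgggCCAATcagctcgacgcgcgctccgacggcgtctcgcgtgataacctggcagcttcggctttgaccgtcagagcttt
Ddit3, chr10:127290543-127290792, plus strand: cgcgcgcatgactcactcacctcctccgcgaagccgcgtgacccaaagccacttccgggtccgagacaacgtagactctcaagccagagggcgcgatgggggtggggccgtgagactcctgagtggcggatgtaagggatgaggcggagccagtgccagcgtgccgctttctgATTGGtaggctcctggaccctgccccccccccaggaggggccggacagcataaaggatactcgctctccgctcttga
Asns, chr6:7693210-7693459, minus strand: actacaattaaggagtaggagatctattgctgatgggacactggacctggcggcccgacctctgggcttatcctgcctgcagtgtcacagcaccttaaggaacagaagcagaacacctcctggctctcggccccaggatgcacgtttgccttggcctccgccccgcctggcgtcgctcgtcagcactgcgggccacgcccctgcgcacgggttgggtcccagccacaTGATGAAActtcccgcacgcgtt

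A CCAAT box lay in the window of 6 of the 10 members. Chac1 had 3 of them, the nearest 32 to 28 bases upstream, and Atf4, Sesn2, Phgdh and Psat1 had 2 each. Ddit3 held a single CCAAT box, 77 to 73 bases upstream. Among the 13098 tested genes with a window, 39.9% held a CCAAT box, against 53.5% of the 660 genes called lower and 34.8% of the 491 called higher in the knockdown. The composite element was in 3 members, Chac1 (193 to 186 bases upstream), Atf3 (110 to 103) and Asns (23 to 16), and in 2.95% of the tested genes. Ppp1r15a held the only CRE, 12 to 5 bases upstream, an element in 2.61% of the tested genes. No member window held an exact ERSE, ERSE-II or UPRE core, and that of Trib3 held none of the elements searched. The Ddit3 window held a near match to the ERSE on the other strand. It reads GCACG in place of CCACG at the ERSE spacing from the CCAAT box. These matches are letters in a short window, and NF-Y binding was not measured here.

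The knockdown was read on the same arrays. Levels below are normalized signals, the log2 intensity of a probe minus the 75th percentile of its array, and a change is the log2 difference of the knockdown from the control mean, with the standard error (SE) of the limma fit. Nfyc fell by 1.81 (SE 0.045, limma adjusted p = 0.000323), to 28.6% of control, and Nfya fell by 0.76 (SE 0.055, adjusted p = 0.00128), to 59.1%. Nfyb, which was not targeted, rose by 0.83 (SE 0.060, adjusted p = 0.00131). Between 61.9% and 66.2% of the spots of an array were well above background, and arrays correlated at 0.989 to 0.994 across probes within a group and at 0.987 to 0.990 between groups. All 13 member probes were well above background on all 6 arrays and none was saturated. Of 12 markers of neuroblastoma and sympathetic neurons, 11 were well above background on every array and Nefl on none, and Mycn and Th were called lower, the mean level over the list being 2.19 to 2.23 on control and 2.05 to 2.16 on knockdown arrays. Other cell types were covered by 18 measured markers. Well above background on every array were 2 of 4 astrocyte, 2 of 3 immune and 2 of 3 endothelial markers. The same held for 4 of 4 fibroblast and 1 of 4 epithelial or liver markers. Among these were Kdr, with a control mean of 3.84, and Cd3e, with 1.13. The fibroblast markers had low levels, with control means from -4.58 (Pdgfra) to -3.24 (Col1a2). Gfap was at -5.33 and Ptprc at -4.69. The lowest signal still well above background was -6.57 to -5.72, depending on the array. Slc1a3, Cdh5, Epcam, Cdh1 and Alb were well above background on no array. Of the 18, Col1a1 was called lower and Pdgfra and Krt8 higher. The part of these differences in the results below was not tested, and in such bulk RNA fewer cells of a kind and less RNA per cell cannot be told apart.

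Among the members the mRNA of Chac1 and Sesn2 was lower in the knockdown, that of Ppp1r15a was slightly higher, and the difference of Atf4 lay in a narrow interval around 0. A gene was called when its adjusted p was below 0.05 and its change exceeded 1.5-fold (0.585 on the log2 scale). By that rule 1 of 10 members, Chac1, was called lower and none higher, beside 5.00% of all tested genes called lower and 3.91% called higher. By the adjusted p alone, Chac1 and Sesn2 were lower and Ppp1r15a was higher, 2 and 1 of 10, beside 15.8% and 15.7% of all genes. These shares are close to those of all genes. The median change of the members was -0.14, with 8 of 10 below 0 (Atf4, among these, was above 0 under both quantile normalizations), and that of all genes was 0.0053.

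**Figure D1:**
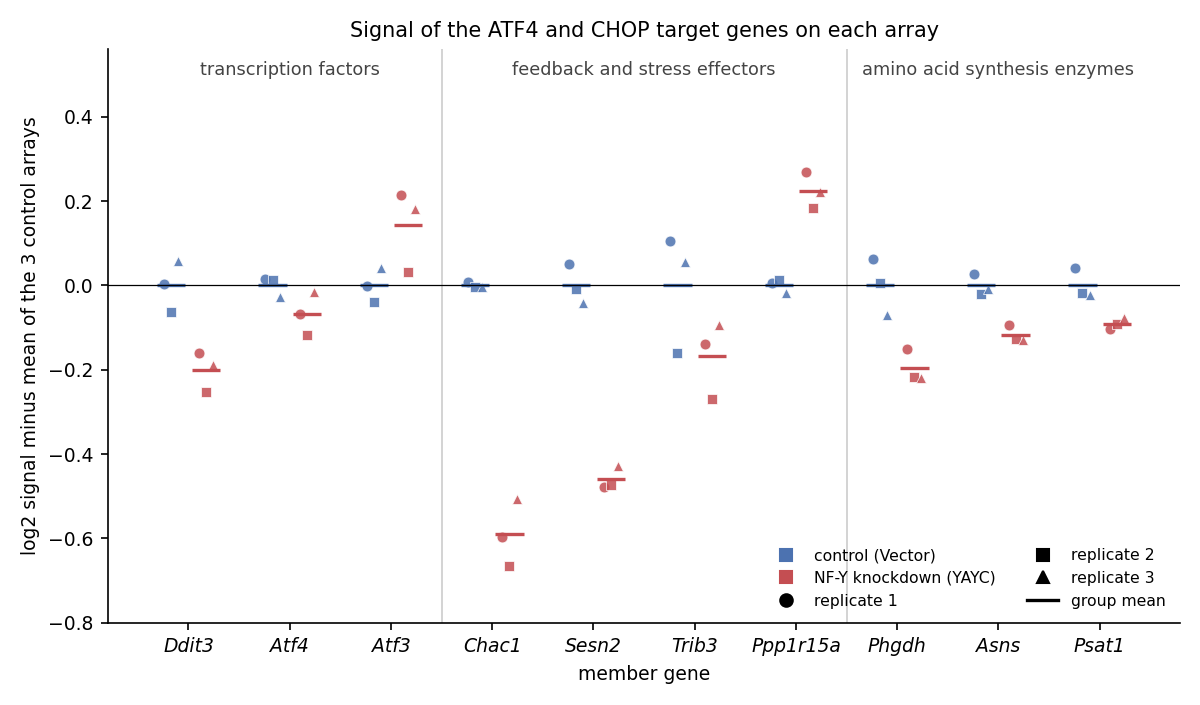
Signal of each member gene on the 6 arrays, as log2 signal minus the mean of the 3 control arrays of the same probe (vertical axis), grouped by role. Blue points are control and red points knockdown arrays, marker shape is the replicate number and bars are group means; the knockdown arrays of Chac1 and Sesn2 lie well below their control arrays and those of Ppp1r15a above them, while the groups of Atf4, Atf3 and Trib3 overlap.

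Chac1 encodes an enzyme that degrades glutathione and is a target of ATF4 acting with CHOP and ATF3. Its normalized signal was 5.21, 5.19 and 5.19 on the control arrays and 4.60, 4.53 and 4.69 on the knockdown arrays. Every knockdown array was below every control array, with a gap of 0.50 between the groups, and the control arrays lay within a far narrower range (SD 0.0069, n = 3) than the knockdown arrays (SD 0.080, n = 3). The change was -0.59 (SE 0.055, 95% interval -0.73 to -0.45, limma adjusted p = 0.00237), which leaves 66.5% of the control signal. The estimate thus sits almost on the 1.5-fold line. Over 21 other processing settings it ranged from -0.71 to -0.49 and kept an adjusted p below 0.05 in all 21, whereas it was a call in 14. Among the settings without a call, the 2-fold minimum raised only the threshold and left the fit unchanged. Without knockdown replicate 2 the change was -0.55 and no longer a call.

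Sesn2 encodes sestrin 2, which restrains mTORC1 when leucine is scarce. The control arrays read 3.23, 3.17 and 3.14 and the knockdown arrays 2.70, 2.71 and 2.75. Again the groups did not overlap, and the gap of 0.38 was larger than the whole range of either group. Sesn2 fell by 0.46 (SE 0.046, 95% interval -0.58 to -0.34, limma adjusted p = 0.00293), to 72.7% of control. Its adjusted p stayed below 0.05 in all 21 settings, with changes of -0.58 to -0.41, and in none of them did it reach the fold threshold.

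Trib3, a pseudokinase that ATF4 and CHOP induce and that in turn binds ATF4, was the most variable member among control arrays. The control arrays gave 4.98, 4.71 and 4.93 and the knockdown arrays 4.73, 4.60 and 4.78. The second control array lay below 2 of the knockdown arrays, so that the groups overlapped. The difference of -0.17 (SE 0.092, 95% interval -0.40 to 0.068) did not pass the test (limma adjusted p = 0.265).

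Ppp1r15a encodes GADD34, the stress-induced subunit that directs a phosphatase to eIF2 and so closes the feedback loop. Signals were 3.68, 3.69 and 3.66 in control and 3.94, 3.86 and 3.90 in knockdown. All knockdown arrays were above all control arrays, by at least 0.17, and Ppp1r15a was the only member with such a pattern. The rise was 0.22 (SE 0.043, 95% interval 0.11 to 0.33, limma adjusted p = 0.0207), to 117% of control. The rise stayed above 0 in all 21 settings, from 0.11 to 0.28, but its adjusted p was below 0.05 in 12 only; it was 0.427 with the array median as the scale and between 0.0620 and 0.0766 when any single one of control replicates 1, 2 and 3 or knockdown replicates 1 and 3 was left out.

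Among the transcription factors, Atf4 itself had signals of 8.21, 8.21 and 8.17 in control and 8.13, 8.08 and 8.18 in knockdown. The third knockdown array lay above the lowest control array. The difference was -0.067 (SE 0.047, limma adjusted p = 0.365), and its 95% interval of -0.19 to 0.051 lies well inside 1.5-fold; with quantile normalization the difference was 0.040, of opposite sign. A second probe of Atf4 gave -0.056 (SE 0.056, adjusted p = 0.533). Protein levels of ATF4 were not measured.

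Ddit3 gave 2.45, 2.39 and 2.51 in control and 2.29, 2.20 and 2.26 in knockdown. The groups were apart by 0.098, with the knockdown arrays lower. The change of -0.20 (SE 0.054, 95% interval -0.34 to -0.065) missed the threshold narrowly, at a limma adjusted p of 0.0527, and passed it in 6 of the 21 other settings. Atf3, an activating transcription factor family member induced by ATF4, read 1.35, 1.31 and 1.40 in control and 1.57, 1.38 and 1.53 in knockdown. Here the second knockdown array fell among the control arrays while the other two lay above them. The difference of 0.14 (SE 0.065, 95% interval -0.023 to 0.31) did not pass the test (limma adjusted p = 0.188).

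The 3 enzymes of amino acid synthesis each had all knockdown arrays below all control arrays, but by small steps, and none was called. Phgdh, the first enzyme of serine synthesis from glycolysis, had 6.17, 6.11 and 6.04 in control and 5.96, 5.89 and 5.89 in knockdown, a change of -0.20 (SE 0.054, limma adjusted p = 0.0564). Its other probe gave nearly the same change, -0.18 (SE 0.045), on the other side of the threshold (adjusted p = 0.0442). Asns, asparagine synthetase, had 7.76, 7.72 and 7.73 in control and 7.64, 7.61 and 7.61 in knockdown. Both groups were tight and lay 0.075 apart, and the change was -0.12 (SE 0.040, 95% interval -0.22 to -0.015, adjusted p = 0.100). With quantile normalization the Asns change was only -0.010 (limma adjusted p = 0.869). After background correction with quantile normalization it was -0.029 (adjusted p = 0.685). Psat1, the aminotransferase that follows Phgdh in serine synthesis, had 6.18, 6.12 and 6.11 in control and 6.03, 6.04 and 6.06 in knockdown. The change was -0.091 (SE 0.041, adjusted p = 0.188) at this probe, while at the other Psat1 probe the groups overlapped, with a difference of -0.0061 (SE 0.069, adjusted p = 0.960).

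**Figure D2:**
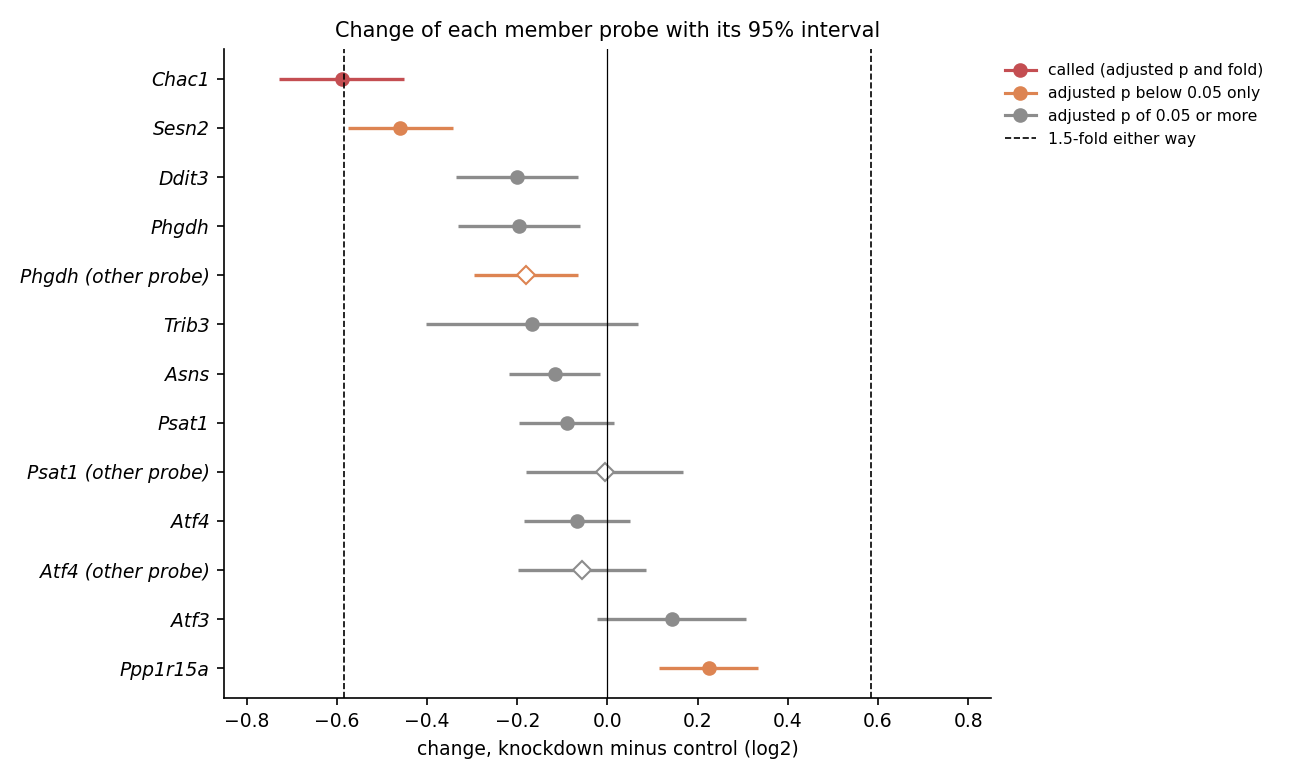
Change of each of the 13 member probes, knockdown minus control on the log2 scale (horizontal axis), with its 95% interval from the limma fit. Filled circles are the probes that stand for a gene and open diamonds the other probes; the interval of Chac1 crosses the 1.5-fold line, and the intervals of the other 9 genes lie within 1.5-fold either way.

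In all, 6 of 10 members had every knockdown array below every control array (Chac1, Sesn2, Ddit3, Phgdh, Asns and Psat1) and 1 had every one above (Ppp1r15a), beside 27.1% and 27.7% of all tested genes. The 95% intervals of 9 of 10 genes lay within 1.5-fold either way. Set beside the promoter windows, the 6 members with a CCAAT box had changes from -0.59 to -0.067, of which that of Atf4 turned positive under quantile normalization, and the 4 without had changes from -0.17 to 0.22. These ranges overlap and no test was made of them.

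**Figure D3:**
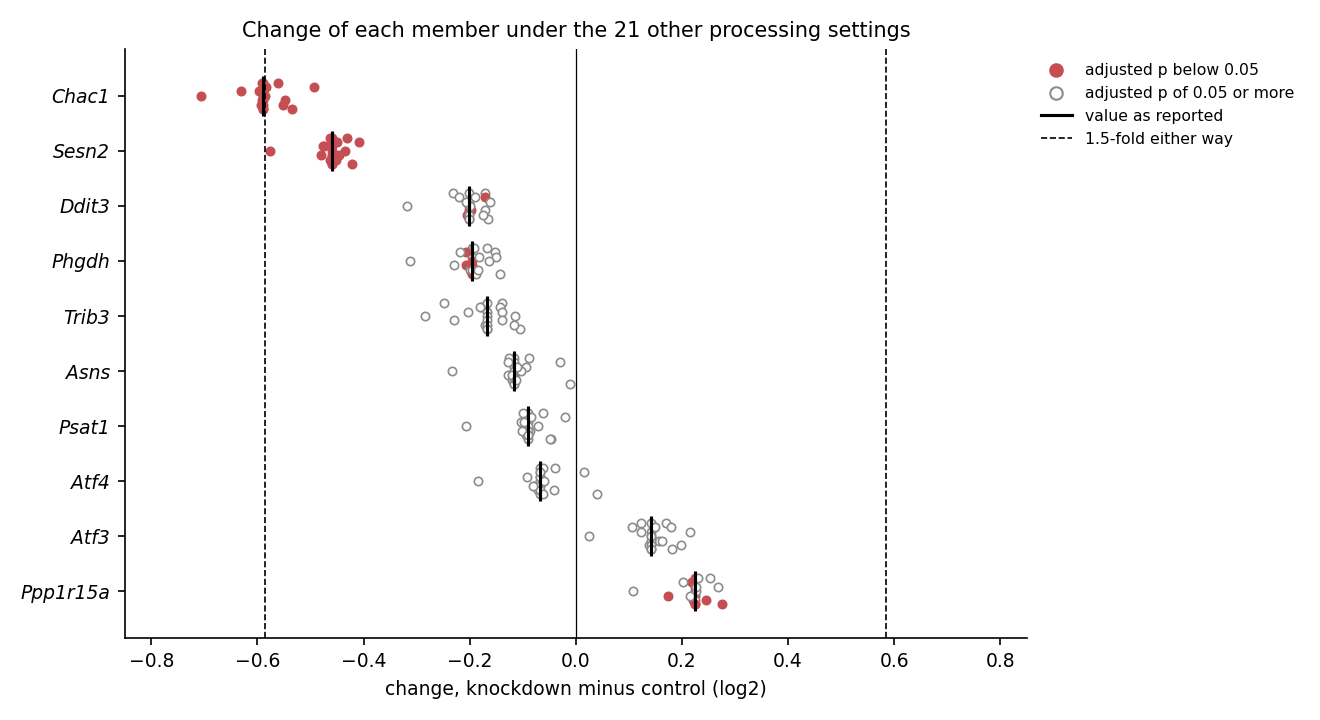
Change of each member (log2, horizontal axis) under each of the 21 other processing settings, one point per setting, with the reported value as a black bar. Filled red points have an adjusted p below 0.05; all points of Chac1 and Sesn2 are red, those of Chac1 fall on both sides of the 1.5-fold line, and 2 points of Atf4 lie above 0.

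The genes around the members were described by lists of the pathway's parts. Of 103 such genes 100 were tested, and 7 were called lower and 4 higher, with a median change of -0.038. By the adjusted p alone 23 were lower and 16 higher. Of all tested genes 5.00% were called lower and 3.91% higher, and 15.8% and 15.7% by the adjusted p alone. The counts of each list below stand beside these shares. Upstream of ATF4, the list of eIF2 kinases, eIF2, its exchange factor eIF2B and its phosphatase had 1 gene called lower and 1 called higher of 19, with 4 lower and 5 higher by the adjusted p alone (median 0.035). The called genes were 2 eIF2 kinases. Eif2ak4, which encodes the amino acid sensor GCN2, fell by 0.66 (SE 0.052, limma adjusted p = 0.00154), to 63.2% of control. Eif2ak2, which encodes the double-stranded RNA sensor PKR, rose by 0.82 (SE 0.098, adjusted p = 0.00489), and missed the threshold with the slide row as a block (adjusted p = 0.0592). Eif2ak3, which encodes the ER sensor PERK, fell by 0.40 (SE 0.059, adjusted p = 0.00892), below the fold threshold, and did not pass with the slide row as a block (adjusted p = 0.0890). The eIF2 alpha subunit gene Eif2s1 differed by -0.066 (SE 0.046, adjusted p = 0.371), while the mean over its probes changed by -0.28 (adjusted p = 0.0205).

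Among 16 dimer partners and relatives of ATF4 and CHOP, 2 were called lower and 2 higher, by the adjusted p alone 4 and 4 (median -0.10). Atf2 fell by 0.91 (SE 0.061, limma adjusted p = 0.00108) and Creb1, a CRE-binding factor, fell by 0.82 (SE 0.059, adjusted p = 0.00130). The mean over the Atf2 probes changed by -0.50 and was not a call. Cebpd rose 2.14-fold (SE 0.040 on the log2 scale, adjusted p = 0.000332), and Fos rose by 0.68 (SE 0.050, adjusted p = 0.00135), a rise of 0.57 to 0.58 and no call with the array median as scale or after background correction. The partners most often linked to ATF4 and CHOP did not pass the test, with Cebpb at 0.26 (SE 0.080, adjusted p = 0.0748), Cebpg at -0.033 (SE 0.041, adjusted p = 0.619) and Atf5 at -0.078 (SE 0.042, adjusted p = 0.253). Cebpb passed in 6 of the 21 other settings.

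Downstream, the 10 amino acid carriers under ATF4 had a median change of -0.26, with 9 of 10 below 0. By the adjusted p alone 5 were lower and 0 higher, beside 15.8% and 15.7% of all genes. Only the glycine carrier Slc6a9 was called, at -0.99 (SE 0.052, limma adjusted p = 0.000609), 50.3% of control. The cystine carrier Slc7a11, named after its values were seen, had a change of -0.89 that did not pass (SE 0.29, adjusted p = 0.0906), since its knockdown arrays had an SD of 0.57 against 0.091 in control. Of 13 genes of the aminoacyl-tRNA synthetase list none was called, with 1 lower and 2 higher by the adjusted p alone (median -0.0092). The lower one was Xpot, a tRNA export factor and not a synthetase, at -0.39 (SE 0.072, adjusted p = 0.0171). The higher ones were the synthetase genes Aars and Mars1. Of 13 tested genes of serine, glycine, one-carbon and proline synthesis, Mthfd1, a folate enzyme, was called lower at -0.67 (SE 0.051, adjusted p = 0.00149), though not after normexp with quantile normalization (-0.58), with 3 lower and 0 higher by the adjusted p alone (median 0.024). Of 29 tested genes among 31 other targets, Cdkn1a and Lmo4 were called lower, at -1.03 (SE 0.057, adjusted p = 0.000669) and -0.99 (SE 0.048, adjusted p = 0.000528). Cdkn1a encodes the cell cycle inhibitor p21, and the mean over its probes changed by only -0.25 (adjusted p = 0.621). Tnfrsf10b, the death receptor induced by CHOP, was called higher at 0.90 (SE 0.073, adjusted p = 0.00168), and Herpud1 was at -0.00046 (SE 0.067, adjusted p = 0.997).

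**Figure D4:**
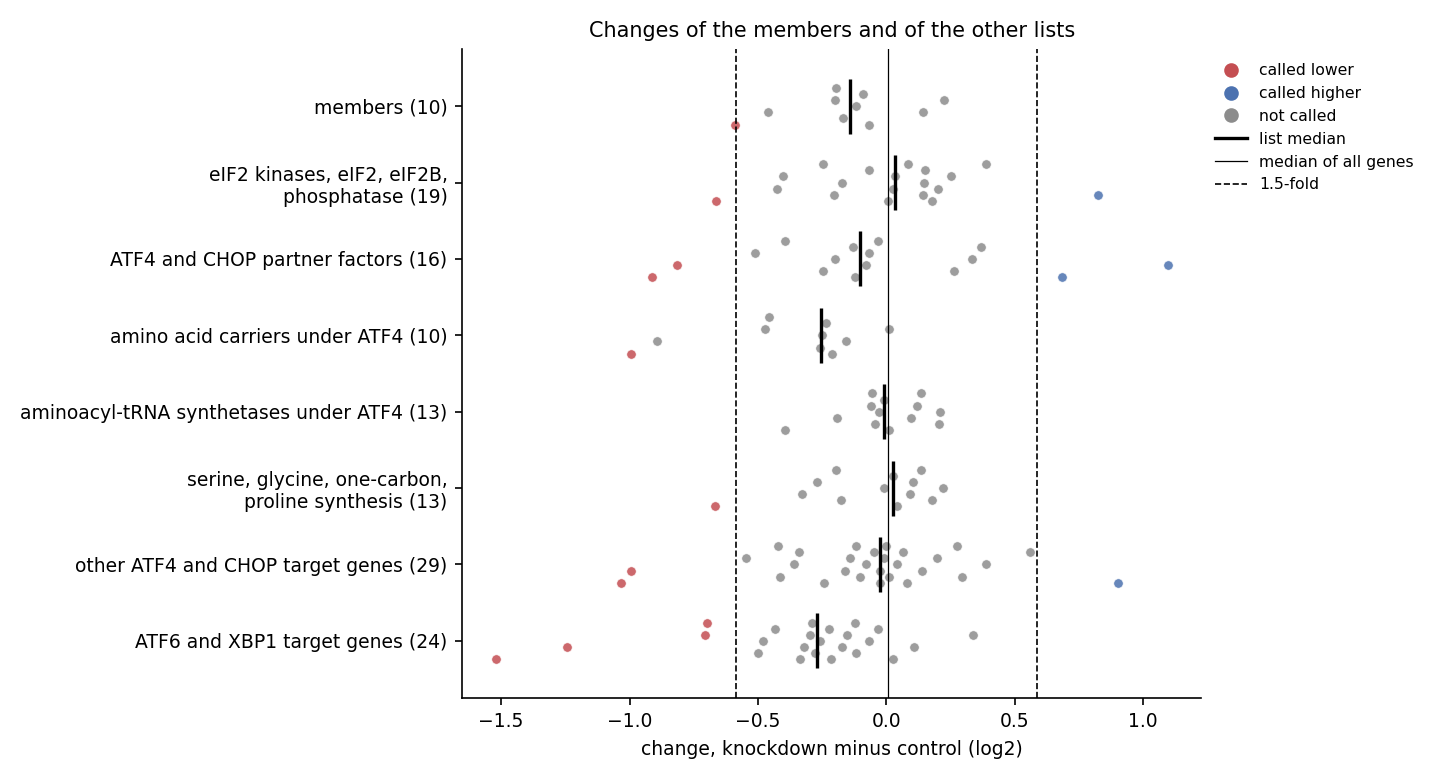
Changes of single genes (points, log2, knockdown minus control) in each list, with the number tested in brackets, called genes in colour and list medians as black bars. The members lie mostly between the 1.5-fold lines; of the 8 lists drawn, those of carriers and of ATF6 and XBP1 targets have the lowest medians, -0.26 and -0.27, beside 0.0053 for all genes.

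The other arms of the ER stress response gave a comparison. The list of 24 ATF6 and XBP1 target genes also holds Atf6, Xbp1 and Ern1 themselves. Of these 24 genes 4 were called lower and none higher, beside 5.00% and 3.91% of all genes. By the adjusted p alone 14 were lower and 1 higher, beside 15.8% and 15.7% of all genes. The median of the list was -0.27 against -0.14 for the members. Hsp90b1, the ER chaperone Grp94, fell by 1.52 (SE 0.065, limma adjusted p = 0.000415), to 34.8% of control. Sdf2l1, an ER chaperone cofactor, fell by 1.24 (SE 0.061), Pdia4, a disulfide isomerase, by 0.71 (SE 0.053), and Edem1, which serves ER-associated degradation, by 0.70 (SE 0.062). Hspa5, the ER chaperone BiP, was at 0.026 (SE 0.047, adjusted p = 0.737) and Dnajb9 rose by 0.34 (SE 0.050, adjusted p = 0.00960), below the fold threshold, and did not pass with the array median as scale (adjusted p = 0.178) or as the mean of its probes. Of 20 of these genes with a promoter window 16 held a CCAAT box and 7 an exact ERSE, against 6 and 0 of the 10 members. Of the tested genes 0.168% held an exact ERSE. Since ATF6 and XBP1 act through the ERSE, these counts may follow from how their target list was chosen. The near match in Ddit3 was not counted. The difference between the lists was not tested.

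Over all genes, 824 were called lower and 644 higher, so that 56.1% of calls were lower. This share was 75.5% with the array median as scale, and 68.0% and 66.3% after normexp background correction with the 75th percentile and with quantile normalization. It was 51.5% with the spike-in probes as scale, so that calls were then nearly balanced.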

How the data were processed

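Total RNA of the transfected cells was labelled with Cy3 and hybridized to Agilent SurePrint G3 mouse gene expression arrays, 1 array per sample, all on 1 slide with 1 scan. The authors deposited Feature Extraction 10.10.1.1 tables, whose processed signal is a linear intensity after background handling by the scanner software. The deposited value table holds log2 values of the authors, whose analysis used GeneSpring GX. Across arrays they differed from the scanner values scaled here by at most 0.0076, apart from a constant for each probe whose origin is not stated, and its column medians were -0.012 to 0.018.

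Here log2 of the processed intensity was reduced by the 75th percentile of each array (718 to 754 in intensity). A probe was tested if at or above the 20th percentile on all 3 arrays of a group, a limit taken from the study's methods (42126 of 55681 probes, 245 of which lacked a value). The knockdown and control groups were then fitted in limma 3.58.1 (R 4.3.3), with Benjamini-Hochberg adjustment over these probes, after a check on simulated data. Accessions were matched to symbols and promoters with RefSeq tables (GRCm38.p6), giving 21578 tested probes a symbol. The probe with the highest mean signal stood for a gene. Array levels have no counting error, and 3 arrays per group limit the precision. An exact permutation test of a single value cannot go below p = 0.1 with 3 against 3.

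The members and lists were chosen with earlier results of these data known. Named genes were all members, the NF-Y subunits, up to 4 called genes per list and direction with the largest change, and Hspa5, Hsp90b1, Dnajb9, Herpud1, Eif2ak3, Eif2s1, Cebpb, Cebpg and Atf5 in any case. The alternatives were 15 other settings of scaling, background, filter, threshold and model, and leaving out each of the 6 arrays. The 2-fold minimum among them reuses the main fit, so its changes and p-values could not differ. Background correction by normexp used the median spot signal with an offset of 50, since the tables used here hold no mean signal. Pycr1 had no probe, and Fgf21 and Bcl2l11 had no probe that was tested. A marker list of another cell type is not reported here.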

Additional observations from a re-analysis of the deposited data

How the results depend on the processing

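The direction of 9 of 10 members was kept under all 21 alternatives, Atf4 turning positive under both quantile normalizations, and 201 of 210 member results and 515 of 546 of the other named genes kept both direction and call status. With the array median as scale the median of all genes moved by -0.117, and that of the members from -0.14 to -0.26.

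Chac1 was no longer called, leaving 0 members called lower, with quantile normalization, the 8 spike-in probes as scale, either normexp correction, a 2-fold minimum or array weights, and over single arrays left out the count was 0 to 1, being 0 without knockdown replicate 2. Members lower by the adjusted p rose from 2 to 4 after normexp with the 75th percentile and under both stricter filters, and to 5 with a trend in the variance prior, by Ddit3, Phgdh and Asns. Members higher by the adjusted p, Ppp1r15a alone, fell to 0 with the array median, the spike-ins, the replicate number as a block or the slide row as a block, and ranged from 0 to 1 over arrays left out. Knockdown replicates 2 and 3 lay in the second slide row, so that the row block compares knockdown replicate 1 with the controls.

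Over all genes, a 2-fold minimum left 286 called lower and 181 higher, and 382 were called higher with the array median and 275 and 283 after normexp with the 75th percentile and with quantiles. A 2-fold minimum left 1 lower and 1 higher in the wider lists, and 2 lower among ATF6 and XBP1 targets. The causes were not tested.

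Whether the replicate numbers pair the arrays is not stated in the labels. Same-numbered arrays correlated in their deviations from the group mean at 0.018, 0.067 and 0.0025. Of the control arrays, 2 of 3 correlated best with their own number. Deviations within groups of 3 arrays balance each other, so these values cannot decide whether the arrays are paired. With the replicate block 765 genes were called lower and 518 higher, Chac1 stayed a call (adjusted p = 0.0289), and Ppp1r15a missed the threshold (adjusted p = 0.0760).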

Other observations

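Several genes of the wider lists passed the adjusted p without reaching 1.5-fold, and are named here after their values were seen. Among the carriers, Slc7a5, which imports leucine, differed by -0.47 (SE 0.053, limma adjusted p = 0.00415) and the glutamine carrier Slc38a1 by -0.46 (SE 0.039, adjusted p = 0.00190). Slc3a2, the partner chain of Slc7a5, was at -0.16 (SE 0.066, adjusted p = 0.163). Among the other targets, Trib1, a relative of Trib3, was higher by 0.39 (adjusted p = 0.00309) and Stc2, a secreted glycoprotein, by 0.56 (adjusted p = 0.00793), while the ER oxidase Ero1a was lower by 0.55 (a change of -0.55, adjusted p = 0.0399). Of the genes of other unfolded protein response factors, Atf6 was itself lower, by a change of -0.43 (adjusted p = 0.00809), and Xbp1 by one of -0.33 (adjusted p = 0.0125). Ern1, of the same list, was at -0.069 (SE 0.058, limma adjusted p = 0.454), and its groups overlapped. Ppp1r15b, the constitutive relative of Ppp1r15a, was higher by 0.39 (SE 0.054, adjusted p = 0.00770).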
